A study of Mus musculus and Homo sapiens with 22 samples.

Results

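The 2 RNA-seq libraries of mouse embryonic stem cells that carry replicate number 2 (WT2 from wild-type cells, KO2 from *Mettl3* knockout cells) were compared with the 4 libraries that carry numbers 1 and 3 (WT1, WT3, KO1 and KO3), with genotype as a covariate. These 6 libraries belong to a series of 22 samples on m6A, the methylated adenosine that the Mettl3 enzyme deposits in mRNA. Both lines were taken from earlier work and kept in serum with LIF, the cytokine that holds embryonic stem cells undifferentiated, and each genotype is represented by a single line. Total RNA was poly(A)-selected on oligo(dT) beads, and stranded libraries were sequenced together on 1 flow cell. The study's methods give 1 round of selection for these cells, while its results describe 2 rounds for miCLIP2. Neither passage names the RNA-seq libraries. How completely each sample was selected, and whether equal replicate numbers mark cells grown or handled together, is not given in the sources used here. Culture, RNA preparation and library preparation therefore cannot be told apart, and in bulk RNA fewer cells of a type cannot be told from less RNA per cell. No comparison of knockout with wild type is made.

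Poly(A) selection keeps RNAs that end in a stretch of adenosines. Most messenger RNAs do, but messages of the replication-dependent histones end in a conserved stem-loop instead, and spliceosomal RNAs, most small nucleolar RNAs, the 7SK RNA and cytoplasmic ribosomal RNA carry no long tail. Mitochondrial messages are polyadenylated, while mitochondrial ribosomal RNAs have short tails at most. Levels of glycolytic genes in cultured cells are known to follow oxygen and glucose supply through HIF transcription factors, which bind an ACGTG core, and sterol synthesis genes follow cholesterol supply through SREBP2.

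The libraries held 22746733 to 27254245 counts on genes. Values are CPM (counts scaled to a common library size) after TMM adjustment, and fold changes are log2, number 2 against numbers 1 and 3, so that negative values are lower in number 2. The TMM factors were 1.071 in WT2 and 1.088 in KO2 against 0.900 to 1.021 in the others. The stem cell markers were high in all 6 libraries, with *Pou5f1* between 445 and 695 CPM, *Nanog* between 628 and 757 and *Sox2* between 346 and 389, and none of the 20 genes of the pluripotency list was called. Of 20 markers of feeder fibroblasts 9 were not testable, and *Col1a2*, *Col3a1*, *Postn*, *Lum*, *Dcn* and *Prrx1* had at most 9 counts in any library. Of the 11 tested markers 8 were positive. Number 2 lay above both other libraries in both genotypes for 4 (all genes, 19.6%) and below for 1 (all genes, 18.2%). The log2 changes ran from -3.37 for *Acta2*, which had 328 counts in KO1, to 2.09 for *Col6a1*. No tested marker passed 0.05, and their part in the results was not tested. Genes that dividing cells use, such as *Kif11*, were also listed at 0, so a low count alone is not read as absence. *Mettl3* had 560, 698 and 612 counts in WT1 to WT3 and 462, 669 and 457 in KO1 to KO3. Which part of the gene the knockout lacks is not given in the sources used here, so this total does not check the labels.

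Of 17339 genes tested, 36 (0.208%) passed an adjusted p of 0.01 in edgeR's quasi-likelihood test. In number 2, 4 were higher (0.0231%) and 32 lower (0.185%). At 0.05 there were 161 (0.929%), 68 of them higher (0.392%) and 93 lower (0.536%). All 36 and all 161 lay outside the range of numbers 1 and 3 on the same side in both genotypes. The test chose these genes from the same libraries, so this was nearly bound to hold and adds no support. Of all genes, 19.6% showed the pattern upwards and 18.2% downwards. Under plain library-size scaling the median over genes shifted by 0.17, which gave 65 higher and 31 lower genes at 0.01. The calls depended on single libraries. None of the 36 passed 0.01 without WT2, KO1 or KO2 and 5 did without KO3, while the count over all genes was 93 without WT1 and 226 without WT3. Of the 161, 51 passed 0.05 without KO1, 47 without KO3 and none without WT2 or KO2, where number 2 is a single library.

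WT2 against WT1 and WT3 and KO2 against KO1 and KO3 share no library. Across the 10854 genes that averaged 100 counts or more, the log2 changes in the 2 genotypes had a Pearson r of 0.55 and a Spearman rho of 0.48, and 66.6% had the same sign. The deviations of number 3 from the mean of its genotype had an r of 0.44 between the genotypes over the same genes, and those of number 1 an r of 0.22. Deviations cancel out within a genotype, so a shared change of number 2 alone also raises these values. Such a change would also raise r between unlike numbers of 1 and 3. WT1 with KO3 had an r of -0.07 and WT3 with KO1 one of 0.11, under the values of like numbers. Whether number 2 was alone in this was not tested. Over all 17339 genes r for number 2 was 0.42, and over 10502 protein-coding genes without histone genes and with at least 100 counts it was 0.53. Genes are not independent replicates, and those of the same class share their chemistry and expression level, so these values are given as a description. The changes were somewhat larger in wild type (SD across genes 0.33) than in knockout (0.28).

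**Figure D1:**
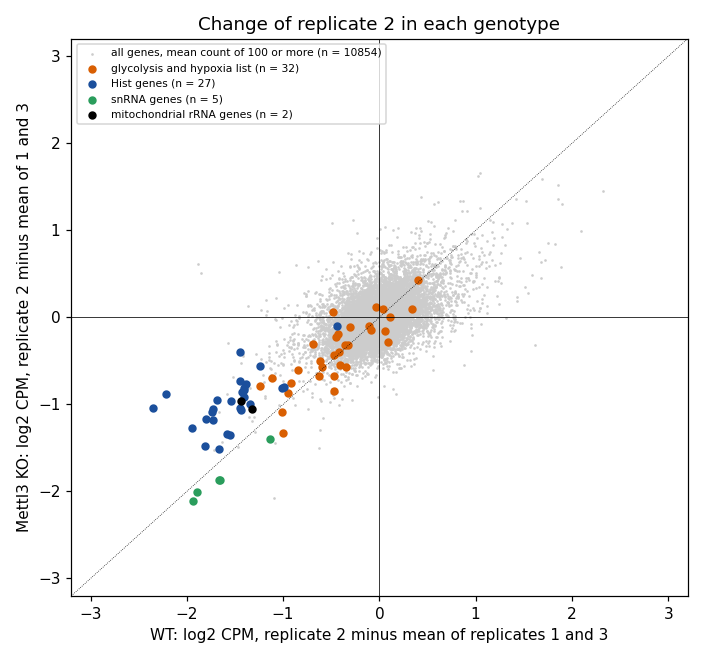
Change of replicate 2 in wild type (x axis) and Mettl3 knockout (y axis), each the log2 CPM of replicate 2 minus the mean of replicates 1 and 3, for genes that averaged 100 counts or more. Histone, snRNA and mitochondrial rRNA genes lie at the lower left, and most genes of the glycolysis and hypoxia list lie between them and 0.

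Among the genes called at 0.01, the lowest values belonged to spliceosomal RNA genes. All 5 snRNA genes called at 0.01, of 21 tested, were lower in number 2, and a sixth was lower at 0.05 (all genes lower, 0.185% and 0.536%). RefSeq names their products U4 (Gm24407 and Gm24265), U2 (Gm25360 and Gm22973) and U1 (Gm22513), the RNAs of the particles that recognise and remodel splice sites. Their sequences are shown because reads of such short, repeated genes can be placed only where copies differ. Capitals mark the letters ATTTNTG on the transcribed strand, which hold the site where Sm proteins bind, and none of them ends in a run of A.

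Gm24407, U4, GRCm38.p6 chr5:115490254-115490394, plus strand: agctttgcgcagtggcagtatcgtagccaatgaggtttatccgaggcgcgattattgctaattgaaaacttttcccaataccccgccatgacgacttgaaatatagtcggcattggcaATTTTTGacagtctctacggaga
Gm24265, U4, chr5:115489459-115489599, plus strand: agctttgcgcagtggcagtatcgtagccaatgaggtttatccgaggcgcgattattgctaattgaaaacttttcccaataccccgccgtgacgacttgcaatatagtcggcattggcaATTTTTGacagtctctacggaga
Gm25360, U2, chr1:72226240-72226430, plus strand: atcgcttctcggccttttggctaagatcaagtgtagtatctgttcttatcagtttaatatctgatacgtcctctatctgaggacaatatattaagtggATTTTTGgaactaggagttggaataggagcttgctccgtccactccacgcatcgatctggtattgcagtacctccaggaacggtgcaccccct
Gm22973, U2, chr12:59040335-59040525, plus strand: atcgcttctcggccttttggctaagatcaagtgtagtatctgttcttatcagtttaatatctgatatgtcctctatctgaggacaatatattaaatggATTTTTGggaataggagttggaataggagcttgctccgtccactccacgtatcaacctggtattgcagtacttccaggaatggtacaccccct
Gm22513, U1, chr12:54696782-54696945, plus strand: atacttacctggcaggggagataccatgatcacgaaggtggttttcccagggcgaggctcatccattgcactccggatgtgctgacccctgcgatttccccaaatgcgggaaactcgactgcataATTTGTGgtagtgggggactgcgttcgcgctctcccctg

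The 2 U4 copies differed at 2 of 141 bases, G88A and C99A counted from 1 at the 5′ end of Gm24265, with the base of Gm24407 second. The 2 U2 copies differed at 10 of 191 bases (94.8% identical). Counts of single copies are therefore uncertain, since reads with several locations were set aside as not unique and given to no gene. Gm24407 had 10.2, 2.61 and 10.1 CPM in WT1 to WT3 and 6.83, 1.72 and 8.65 in KO1 to KO3. It was lower in number 2 by a log2 change of -2.06 ± 0.21 (SE; edgeR, adjusted p = 0.00275). Gm22513, the U1 gene, had 21.1, 9.41 and 20.5 CPM in wild type and 23.5, 9.38 and 26.4 in knockout, a log2 change of -1.28 ± 0.15. The number 2 value was the lowest of its genotype in each of the 5 genes. Gm25939, a further U2 gene with 87.8 counts on average, had -1.18 ± 0.26 and missed 0.05 (edgeR, adjusted p = 0.0547). *Rnu11* of the minor spliceosome, with 18.2 counts on average, had -1.07 and did not pass either (edgeR, adjusted p = 0.228). Over all 21 snRNA genes the median was -0.49 and 4 values were positive.

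Replication-dependent histone genes were lower as a family. Their products package newly copied DNA. All 59 tested genes with Hist1 to Hist4 symbols had negative log2 changes. For 52 of them number 2 lay below both other libraries in both genotypes (all genes, 18.2%). At 0.01, 14 were lower and at 0.05, 31 (all genes, 0.185% and 0.536%), with a median of -1.32 against 0.00 over all genes. The family was grouped by symbol after values had been seen. In the list of 18 histone genes, 17 were tested, 8 were lower at 0.01 and 12 at 0.05. *Hist1h2bg* had 25.1, 6.01 and 21.8 CPM in wild type and 28.3, 10.4 and 22.2 in knockout, a log2 change of -1.60 ± 0.19 (edgeR, adjusted p = 0.00278). *Hist1h4d* had 38.7, 10.8 and 36.5 CPM in wild type and 33.0, 12.8 and 25.2 in knockout, a change of -1.48 ± 0.18. In both, the number 2 values lay well under the lowest of the other 4 libraries.

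Linker histone genes were among those lower. *Hist1h1a* changed by -1.47 ± 0.18, *Hist1h1d* by -1.15 ± 0.16 and *Hist1h1c* by -0.89 ± 0.13, all at adjusted p values of 0.00835 or less in edgeR. *Hist1h2ab*, *Hist1h4f* and *Hist1h2bm*, with -1.68, -1.62 and -1.49, were among the 12 lowest genes named by the rule. A small number of histone genes stood apart. *Hist2h2be* had 1.27, 1.36 and 1.23 CPM in wild type and 0.879, 0.743 and 0.850 in knockout, a log2 change of -0.03 ± 0.30, and the testis gene *Hist1h1t*, with 14.3 counts on average, changed by -0.17 ± 0.56. The 9 tested replacement histone genes, such as *H3f3a* and *H2afz* whose messages are polyadenylated, had a median of -0.07, and 0 of them passed 0.05. That set was also chosen after values had been seen.

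The consensus of the histone stem-loop was searched on the transcribed strand from 600 bases before to 200 after each annotated gene end. It was found in 41 of 59 histone genes and in 46 of 17305 tested genes on chromosomes (0.266%). The 30-base windows of 4 called genes are shown with the stem-loop in capitals.

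*Hist1h2ab*, chr13:23751572-23751587, plus strand: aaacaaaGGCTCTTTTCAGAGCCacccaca
*Hist1h2bg*, chr13:23571843-23571858, plus strand: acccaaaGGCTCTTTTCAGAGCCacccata
*Hist1h4f*, chr13:23551291-23551306, minus strand: tctcaaaGGCCCTTTTCAGGGCCacccact
*Hist1h3b*, chr13:23752820-23752835, plus strand: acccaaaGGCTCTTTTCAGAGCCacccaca

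Of the 41 histone genes with the consensus 21 were lower at 0.05, with a median of -1.43, and of the 18 without it 10 were lower, with a median of -1.22. The 5 other genes with it, *Lactb*, *Pim2*, *Actr1b*, *Alg1* and *Slc1a6*, ranged from -0.38 to 0.27 and none was called. The search was chosen after values had been seen, and an annotated end that stops short or runs long can hide a match. Histone calls at 0.05 numbered 15 without KO1, 21 without KO3 and 0 without WT2 or KO2.

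Some other RNAs without a long tail were lower too. *Rn7sk*, the 7SK RNA that holds the elongation factor P-TEFb inactive, had 936, 344 and 824 CPM in wild type and 1395, 583 and 1199 in knockout, a log2 change of -1.25 ± 0.12 (edgeR, adjusted p = 0.00269). *Snord17*, a small nucleolar RNA, had 11.9, 3.25 and 9.95 CPM in wild type and 9.39, 3.21 and 9.31 in knockout, a change of -1.64 ± 0.19. Of 103 snoRNA genes 6 were lower at 0.05 (all genes, 0.536%), 34 had positive values, and the median was -0.29. Number 2 lay below both other libraries in both genotypes for 30 of the 103 (all genes, 18.2%) and above for 8 (all genes, 19.6%). Of 11 scaRNA genes, which guide the modification of spliceosomal RNAs, 2 were lower at 0.05 (all genes, 0.536%), and 10 had negative values. Of 6 genes of the rRNA biotype 5 were negative and 0 passed 0.05. The Y RNA gene *Rny3* changed by -2.21 ± 0.38 at 0.641 to 5.43 CPM.

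Mitochondrial ribosomal RNA was lower, while 6 of 7 tested mitochondrial messages had positive changes. *mt-Rnr1*, the 12S rRNA, had 7966, 3276 and 8446 CPM in wild type and 10347, 4738 and 9397 in knockout. Its log2 change was -1.19 ± 0.13 (edgeR, adjusted p = 0.00278), and that of *mt-Rnr2*, the 16S rRNA, was -1.19 ± 0.14. The 2 genes together took 1.58%, 0.709% and 1.58% of the gene counts in wild type and 2.13%, 1.12% and 2.05% in knockout. Mitochondrial protein-coding genes took 1.15%, 1.73% and 1.26% in wild type and 1.29%, 1.90% and 1.03% in knockout, so that number 2 was the lowest of its genotype for the first class and the highest for the second. In an exact two-sided permutation test of the number within each genotype, both differences had p = 0.111, the smallest value that its 9 arrangements allow.

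Of the 7 tested mitochondrial protein-coding genes 2 were higher at 0.05 (all genes, 0.392%), both encoding subunits of complex I. *mt-Nd5* had 983, 1643 and 1242 CPM in wild type and 627, 1371 and 495 in knockout, a log2 change of 0.94 ± 0.17 (edgeR, adjusted p = 0.0234), and *mt-Nd4* changed by 0.92 ± 0.19 (edgeR, adjusted p = 0.0482). The changes of *mt-Nd1*, *mt-Nd2*, *mt-Co1* and *mt-Cytb* lay between 0.40 and 0.50 and did not pass 0.05. *mt-Nd6*, the message of the light strand, which is known to lack a long tail, had -0.24 ± 0.11 and did not pass it. Its number 2 value lay below both other libraries in both genotypes. Of 33 tested nuclear-encoded respiratory chain genes 0 were called at 0.05 in either direction, with a median of -0.08. *mt-Co2*, *mt-Co3*, *mt-Atp6* and *mt-Atp8* are listed at 0 in every library and *mt-Nd3* and *mt-Nd4l* at no more than 1 count, so their levels were not measured.

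The largest single share of counts moved with these RNAs. Gm42418, a lincRNA gene at chr17:39846958-39848788 on the plus strand, overlaps by 1245 bases a RefSeq 18S ribosomal RNA-related sequence (Rn18s-rs5, chr17:39846354-39848202). It took 18.5%, 11.3% and 20.3% of gene counts in wild type and 17.4%, 13.2% and 18.04% in knockout. Its log2 change was -0.76 ± 0.18 and missed 0.05 in edgeR (adjusted p = 0.0640). The 10 genes with the most counts took 16.1% in WT2 and 17.98% in KO2 against 23.1% to 25.5% in the others (exact permutation p = 0.111). *Lars2*, a mitochondrial leucyl-tRNA synthetase gene at 3760 to 8386 CPM, and Mir6236 changed by -0.93 ± 0.16 and -0.97 ± 0.14. Both are known to collect ribosomal RNA reads in mouse data, so their values are uncertain as gene levels.

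**Figure D2:**
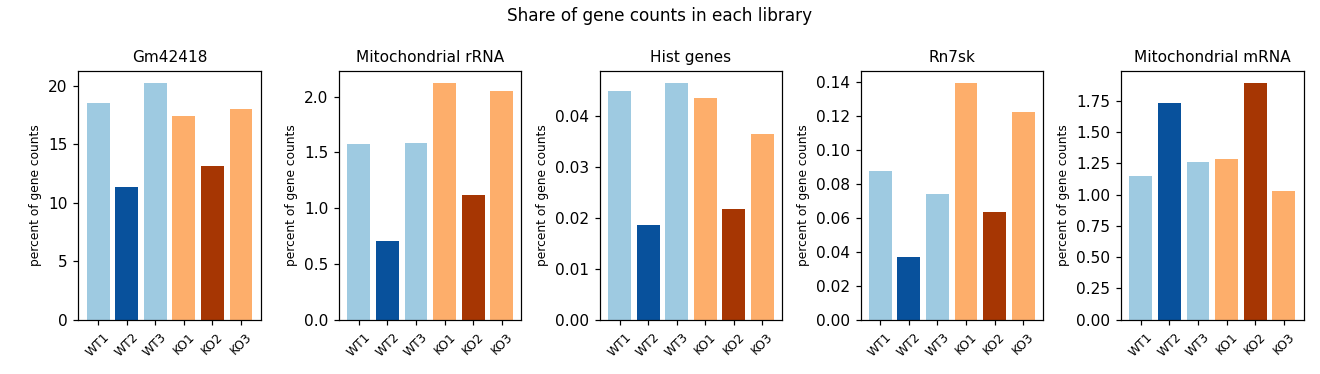
Percent of gene counts (y axes, each from 0) in each of the 6 libraries for Gm42418, mitochondrial rRNA, Hist genes, Rn7sk and mitochondrial protein-coding genes. Replicate 2, in the dark bars, is the lowest of its genotype in the first 4 panels and the highest in the fifth.

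Of the 36 genes called at 0.01, 11 were protein-coding genes outside the histone family. When genes of RNAs without a poly(A) tail or like ribosomal RNA were removed before scaling and testing, an alternative added after values had been seen, 1 gene passed 0.01 in place of 36. All 11 of the remaining called genes then passed 0.05, and of the 109 tested genes called at 0.05 before, 64 did. The changes themselves moved little, with the median over all genes shifted by -0.01.

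Among protein-coding genes, targets of low oxygen and enzymes of glycolysis were lower. Of 35 tested genes in the glycolysis and hypoxia list 2 were lower at 0.01 and 12 at 0.05 (all genes, 0.185% and 0.536%), and none was higher. For 25 genes number 2 lay below both other libraries in both genotypes (all genes, 18.2%), and the median was -0.41. At 0.05, 3 genes of the list were lower without KO1, 6 without KO3 and 0 without WT2 or KO2, and 11 were lower with the RNAs above left out. In WT1, WT2 and WT3 the median deviation of the list from the mean of numbers 1 and 3 was -0.01, -0.43 and 0.01, and in KO1, KO2 and KO3 0.05, -0.40 and -0.05.

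**Figure D3:**
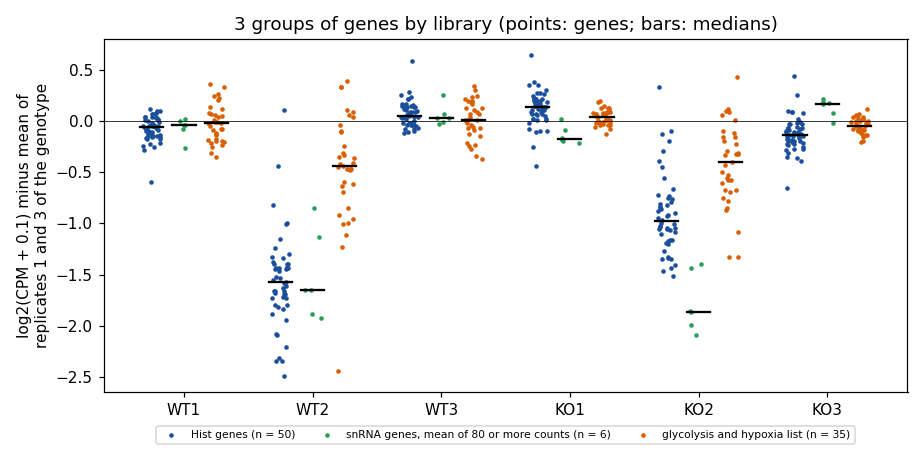
Deviation of log2(CPM + 0.1) from the mean of replicates 1 and 3 of the same genotype (y axis) in each library for Hist genes that averaged 20 counts or more, snRNA genes that averaged 80 or more and the glycolysis and hypoxia list; points are genes and bars medians. Medians in WT2 and KO2 are -1.58 and -0.98 for Hist genes and -1.65 and -1.86 for the 6 snRNA genes. For the list they are -0.43 and -0.40. In the other libraries medians lie between -0.17 and 0.17, and replicates 1 and 3 mirror each other because their mean is the reference. Over all 21 tested snRNA genes the median log2 changes were -0.34 in wild type and -0.49 in knockout.

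Regulators and direct targets of the oxygen response came first in the list. *Ankrd37*, a gene induced by HIF, had 34.4, 18.03 and 38.0 CPM in wild type and 20.5, 8.14 and 20.6 in knockout, a log2 change of -1.16 ± 0.14 (edgeR, adjusted p = 0.00278). *Egln3*, a prolyl hydroxylase that marks HIF for degradation, had 74.8, 37.3 and 104 CPM in wild type and 72.3, 43.7 and 78.6 in knockout, a change of -1.01 ± 0.16 (edgeR, adjusted p = 0.0116). *Adm*, which encodes the peptide adrenomedullin, had the largest change at -1.90 ± 0.32, from 0.718 CPM in WT2 and 1.52 in KO2 to between 3.62 and 5.04 in the others. The mitophagy gene *Bnip3* changed by -0.66 ± 0.12, the mTORC1 inhibitor gene *Ddit4* by -0.93 ± 0.16 and *Ndrg1* by -1.07 ± 0.18. *Vegfa*, the angiogenic growth factor, had 0.07 ± 0.11, *Car9* was under 1.2 CPM in every library, and *Egln1*, at -0.50 ± 0.14, did not pass 0.05.

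Genes of glucose uptake, glycolysis and lactate export were lower as well. *Slc2a1*, the glucose transporter GLUT1, had 641, 339 and 836 CPM in wild type and 559, 326 and 496 in knockout, a log2 change of -0.90 ± 0.14 (edgeR, adjusted p = 0.0168). *Pfkfb3*, whose product makes the activator of phosphofructokinase, had 55.4, 27.6 and 49.1 CPM in wild type and 56.0, 33.8 and 57.7 in knockout, a change of -0.84 ± 0.12 (edgeR, adjusted p = 0.00735). The lactate transporter gene *Slc16a3* changed by -0.73 ± 0.14, and among enzymes *Tpi1* changed by -0.66 ± 0.13, *Aldoc* by -0.57 ± 0.11 and *Pgam1* by -0.56 ± 0.11. *Ldha* at -0.60 and *Pgk1* at -0.46 missed 0.05, and *Gapdh*, *Aldoa*, *Gpi1* and *Hk2* lay between -0.20 and 0.05. *Hk1* was the highest of the list at 0.40 ± 0.15, without passing the test.

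**Figure D4:**
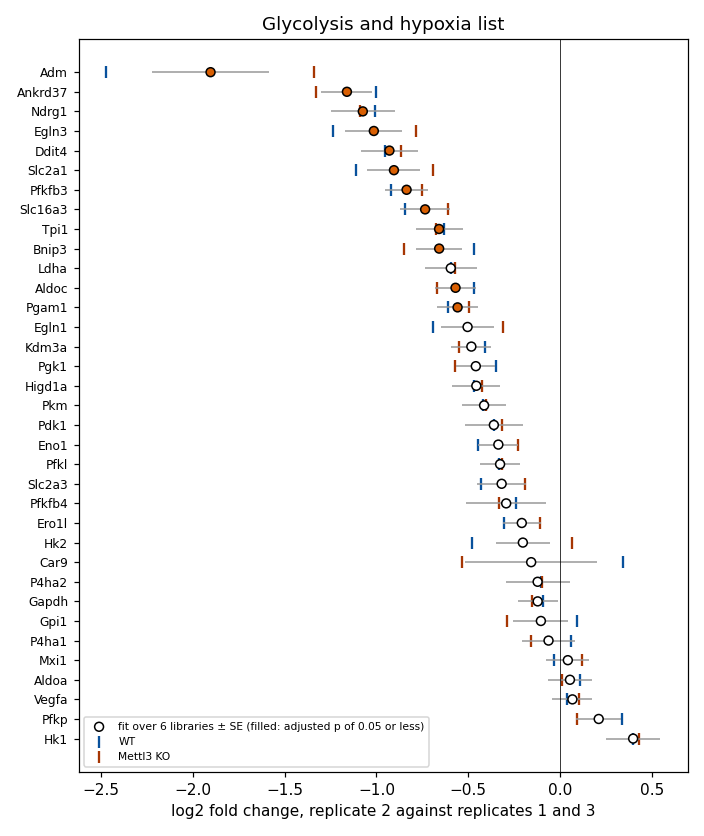
Log2 fold change of replicate 2 against replicates 1 and 3 (x axis) for the 35 tested genes of the glycolysis and hypoxia list, with the SE as a bar and the separate changes in wild type and knockout as ticks; filled points passed an adjusted p of 0.05. The 12 filled genes lie between -1.90 and -0.56, with both ticks below 0.

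The promoter windows of the list were searched for the core ACGTG, since the list was drawn up from known targets of HIF. Windows ran from 250 bases before to 50 after a RefSeq start and both strands were read. Of 32 list genes with a window 23 (71.9%) held the core, against 28.3% of 11723 tested genes with one. Among the lower genes of the list it was 9 of 11. Lists without a lower gene also held their own motifs more often than other genes, such as the heat shock list (GAANNTTC, 83.3% against 6.94%) and the amino acid response list (TGATGNAAN, 37.0% against 2.78%), while in the sterol list it was 5.88% against 1.40% (TCACNCCAC). The windows of 3 called genes that hold more than 1 match over both strands are shown from RefSeq on GRCm38.p6, cores in capitals. That of *Ankrd37*, which also held 2 matches, is not shown. In *Pfkfb3* and *Bnip3* the capitals read CACGTG, which holds the core on both strands. A match is not evidence of binding.

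*Pfkfb3*, chr2:11502041-11502340, minus strand: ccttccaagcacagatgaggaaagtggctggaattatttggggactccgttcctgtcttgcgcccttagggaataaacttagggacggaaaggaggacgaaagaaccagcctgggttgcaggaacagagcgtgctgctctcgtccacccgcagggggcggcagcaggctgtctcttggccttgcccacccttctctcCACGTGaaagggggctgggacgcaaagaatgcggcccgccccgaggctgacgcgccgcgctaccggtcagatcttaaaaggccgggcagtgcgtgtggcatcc
*Slc16a3*, chr11:120948817-120949116, plus strand: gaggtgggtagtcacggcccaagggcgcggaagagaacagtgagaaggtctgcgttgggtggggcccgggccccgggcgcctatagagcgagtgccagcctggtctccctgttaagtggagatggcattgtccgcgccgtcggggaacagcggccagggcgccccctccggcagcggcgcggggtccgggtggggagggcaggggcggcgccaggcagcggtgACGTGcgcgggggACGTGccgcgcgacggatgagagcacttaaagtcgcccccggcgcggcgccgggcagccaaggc
*Bnip3*, chr7:138909457-138909756, minus strand: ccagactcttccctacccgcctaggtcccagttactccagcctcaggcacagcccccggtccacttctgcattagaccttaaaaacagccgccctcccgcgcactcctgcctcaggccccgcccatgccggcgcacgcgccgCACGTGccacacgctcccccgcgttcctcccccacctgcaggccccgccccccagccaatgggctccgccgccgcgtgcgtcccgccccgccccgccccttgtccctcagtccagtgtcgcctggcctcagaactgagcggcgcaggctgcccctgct

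Outside the lists, *Bhlhe40*, *Tfrc* and *Galk1* were lower at 0.01 and are named after their values were seen. *Bhlhe40*, a transcriptional repressor of the circadian and hypoxia responses, had the smallest p-value of all genes, with 249, 99.9 and 244 CPM in wild type and 220, 93.5 and 195 in knockout. Its log2 change was -1.23 ± 0.11 (edgeR, adjusted p = 0.00169). *Tfrc*, the transferrin receptor that takes up iron, had 530, 219 and 909 CPM in wild type and 283, 140 and 314 in knockout, a change of -1.39 ± 0.21 (edgeR, adjusted p = 0.00936). WT1 and WT3 were far apart for this gene, with WT2 under both. *Galk1*, the galactokinase gene, changed by -0.76 ± 0.11.

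Sterol synthesis genes shared a sign, and 1 of 25 was lower at 0.05 (all genes, 0.536%). All 25 tested genes of that list had negative log2 changes, with a median of -0.45. For 20 of them number 2 lay below both other libraries in both genotypes (all genes, 18.2%). *Cyp51*, which removes a methyl group from lanosterol, had 135, 91.2 and 159 CPM in wild type and 78.6, 62.0 and 90.8 in knockout, a change of -0.57 ± 0.12 (edgeR, adjusted p = 0.0492). *Hmgcs1* at -0.63 and *Dhcr7* at -0.62 missed 0.05. The list's median was -0.59 in wild type and -0.30 in knockout.

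The Nodal antagonists *Lefty1* and *Lefty2* were lower. *Lefty1* had 27.3, 12.8 and 50.4 CPM in wild type and 33.3, 13.9 and 38.0 in knockout, a log2 change of -1.48 ± 0.21 (edgeR, adjusted p = 0.00903). *Lefty2* had 82.4, 49.9 and 181 CPM in wild type and 83.2, 33.5 and 84.0 in knockout, a change of -1.36 ± 0.24 (edgeR, adjusted p = 0.0232). Number 2 was the lowest of its genotype for both, although WT1 and WT3 differed from each other by more than KO1 and KO3 did. *Nodal* itself changed by -0.31 ± 0.13 and was not called, nor were the other tested genes of the primed and early lineage list, in which 14 of 16 values were negative. *Ier3*, an early response gene that limits cell death, had 15.4, 5.59 and 19.9 CPM in wild type and 8.99, 3.00 and 7.50 in knockout, a change of -1.56 ± 0.19 (edgeR, adjusted p = 0.00330). It was the only one of 17 tested immediate early genes to pass 0.05, with *Fos* at -0.78 and *Junb* at -0.56 not passing.

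At 0.01, 4 genes were higher against 32 lower, and most of the 4 lay at low CPM. At 0.05 it was 68 against 93. It was 34 against 30 with RNAs without a poly(A) tail left out, and 675 against 108 under plain library-size scaling. *Ly6g6e*, a surface protein gene of the Ly6 family, had 19.3, 51.3 and 16.4 CPM in wild type and 15.3, 27.7 and 11.2 in knockout, a log2 change of 1.31 ± 0.16 (edgeR, adjusted p = 0.00278). *Pga5*, a pepsinogen gene, had 2.07, 7.41 and 2.42 CPM in wild type and 2.80, 7.33 and 2.03 in knockout, a change of 1.66 ± 0.21 (edgeR, adjusted p = 0.00402). The dipeptidase gene *Dpep3* changed by 1.63 ± 0.23, and the fourth called gene, *Alb*, lay between 0.148 and 2.83 CPM. At 0.05 the nuclear RNA *Neat1*, the scaffold of paraspeckles, was higher, with 139, 208 and 88.1 CPM in wild type and 67.0, 135 and 49.8 in knockout and a change of 1.05 ± 0.17 (edgeR, adjusted p = 0.0172). *Malat1*, its neighbour in the genome, had 0.24 ± 0.20. The germ cell gene *Dazl*, with 17.3, 29.1 and 12.3 CPM in wild type and 5.27, 9.96 and 5.91 in knockout, changed by 0.91 ± 0.16 (edgeR, adjusted p = 0.0252).

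**Figure D5:**
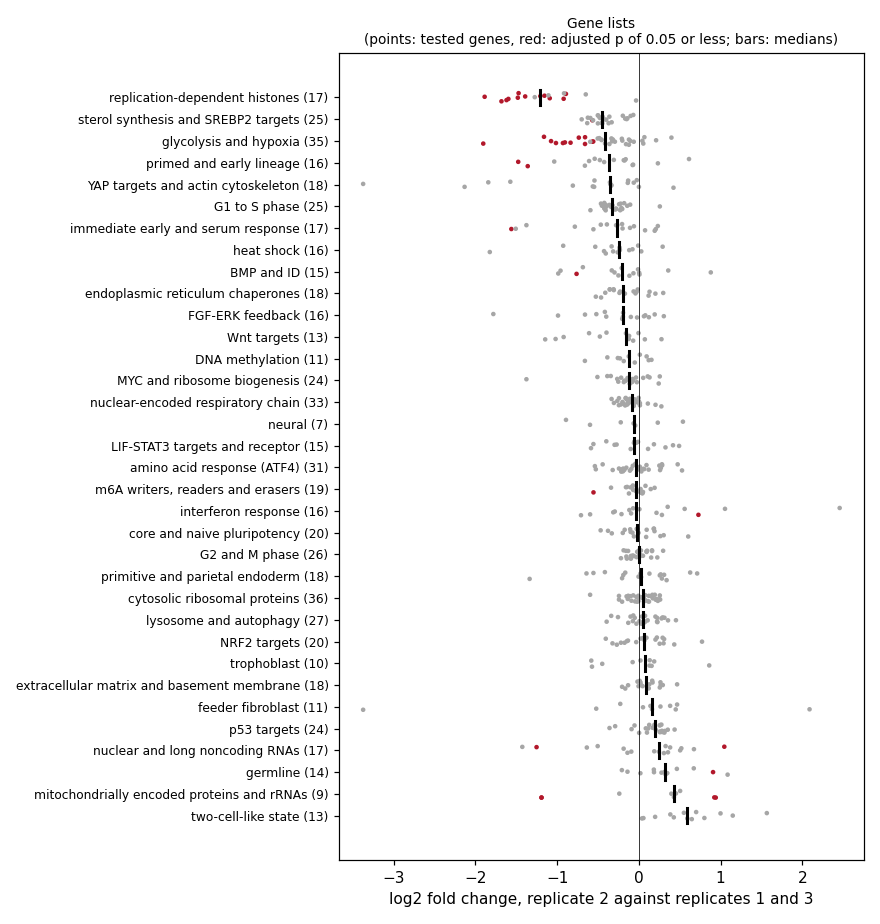
Log2 fold change of replicate 2 against replicates 1 and 3 (x axis) for the tested genes of each list (rows, number tested in brackets), with genes at an adjusted p of 0.05 or less in red and medians as bars. The replication-dependent histones have the lowest median, at -1.21, and the other medians lie between -0.45 and 0.59.

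No gene changed differently in the 2 genotypes at an adjusted p of 0.01 or 0.05 in edgeR's interaction test, and 355 (2.05%) had an unadjusted p under 0.05. DESeq2 also called 0, with 136 (0.784%) under 0.05. This test has 2 residual degrees of freedom. The smallest interaction p among genes with at least 100 counts belonged to *Mt2*, a metallothionein that binds zinc, with 255, 91.2 and 287 CPM in wild type and 254, 184 and 199 in knockout. Its log2 change was -1.57 in wild type and -0.29 in knockout. *Hhip*, *Zmiz1* and *Ccnjl* followed with changes of -1.89, -0.29 and -1.05 in wild type and 0.62, 0.72 and 0.53 in knockout, and the snoRNA gene Gm22270 with 1.61 and -0.32.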

How the data were processed

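Counts of reads per gene in the 6 mESC RNA-seq libraries were deposited as whole numbers. Per the labels and the study's methods, the authors aligned reads to GRCm38.p6 with GENCODE M23 by STAR 2.6.1b, keeping 1 location for reads with several, and counted reverse-stranded reads with HTSeq 0.12.4. Deposited m6A sites carry a score, of which only positions were used. Symbols and biotypes came from GENCODE M21, which held 55240 of 56196 gene IDs (98.3%). Lines that name no gene were left out. Among them were reads without a feature (17.6% to 22.6% of all lines) and reads whose location was not unique (13.9% to 15.2%). Counts were fitted in edgeR 4.0.16 (R 4.3.3; DESeq2 1.42.0 as an alternative) with filterByExpr, TMM and a quasi-likelihood model of genotype plus number 2 (3 residual degrees of freedom), with Benjamini-Hochberg adjustment over all genes; 0.01 is the study's threshold and 0.05 a second one. SE is the absolute log2 change divided by the square root of F. On simulated counts for this comparison the test was checked on known changes. Log2 CPM used a prior count of 2. Named genes were the 12 highest and 12 lowest called at 0.01 with at least 100 counts and number 2 outside both ranges, the 5 smallest interaction p-values and list members. The lists and this comparison were chosen with earlier results of these data known. Of IDs that share a symbol, the one with more counts was used. Labels call the samples biological replicates without naming cultures, so p-values measure only the spread between these samples. Libraries differed from each other by more than counting noise (chi-square per degree of freedom 8.26 to 95.7), so none was merged.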

Additional observations from a re-analysis of the deposited data

How the results depend on the processing

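The 36 genes called at 0.01 (4 higher, 32 lower) became 217 (82 higher, 135 lower) with DESeq2, 96 (65 and 31) with scaling by library size alone, 219 (100 and 119) without the filter on low counts, 17 (2 and 15) when each library had to hold 10 counts or more, 0 (0 and 0) against a 1.5-fold change (glmTreat) and 1 (0 and 1) without RNAs that lack a poly(A) tail. At an adjusted p of 0.05 there were 161 (68 and 93). Leaving out 1 library gave 0 to 226 genes (0 to 111 higher, 0 to 115 lower). No alternative changed the sign of any of the 36 or the 161 genes it tested. A replicate block in the model gave 302 genes (158 and 144), and 266 (118 and 148) with a GC offset as well, all 36 among them in both. Histone genes lower at 0.05 numbered 31, and 5 against a 1.5-fold change and 0 to 44 without 1 library; those of the glycolysis and hypoxia list numbered 12, 0 and 0 to 18. Deviations of libraries with the same number from their genotype's mean correlated at 0.0983, 0.418 and 0.253 for numbers 1, 2 and 3 over all tested genes. Over genes averaging 100 counts or more the values were 0.224, 0.554 and 0.443. Over the latter genes WT1 with KO3 had -0.0749 and WT3 with KO1 0.107. Deviations cancel out within a genotype, so these values are not independent. Whether the numbers pair the libraries was not tested. The libraries were not treated as pairs. As a share of all counted lines, mitochondrial rRNA differed by -0.548 and histone genes by -0.0134 percentage points, against -0.921 and -0.0227 of gene counts. The interaction called 0 genes with DESeq2, with library size alone, with 10 counts in each library and without WT1, WT3, KO1 or KO3, with 116 to 2541 at an unadjusted p under 0.05; other alternatives were not run for it. Where not given, the cause was not tested.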

Other observations

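Other lists shared a sign without calls. Of the 25 genes of the G1 to S phase list, 24 had negative log2 changes (median -0.32), but none passed 0.05. For 16 of them number 2 lay below both other libraries in both genotypes (all genes, 18.2%). The 26 tested genes of the G2 and M phase list had a median of 0.00. Of 24 p53 targets 20 were positive, with a median of 0.20, and none passed 0.05. All 13 tested genes of the 2-cell-like state were positive (median 0.59), and none passed 0.05. For 2 of them number 2 lay above both other libraries in both genotypes (all genes, 19.6%). The residual SD of that list's median across libraries was 0.69. Among 517 lincRNA genes 353 were positive (median 0.24). Of the 517, 3 were higher and 1 lower at 0.05 (all genes, 0.392% and 0.536%). Among 363 antisense genes 241 were positive (median 0.23). Tested genes with few counts leaned the same way. The 4340 with the lowest mean counts had a median of 0.149, and the 4335 with the highest had -0.0545. Whether count level accounts for the positive values of these 2 classes was not tested.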
